A study of Caenorhabditis elegans with 12 samples.

Results

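The proteasome subunits described here are the products of 31 Caenorhabditis elegans genes, measured as mRNA on 3′ expression arrays hybridised with RNA from whole L4 larvae. They were taken by name as the 14 core genes (pas-1 to pas-7 and pbs-1 to pbs-7) and the 17 cap genes (rpt-1 to rpt-6 and 11 rpn genes). Each gene is represented by its probe set with a single gene symbol and the highest mean over the 12 arrays. All 31 lay at or above the floor for testing, a log2 value of 4, on every array, and all 31 were tested, out of 10365 genes tested. The rule uses gene names and mean levels.

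The proteasome degrades proteins that carry ubiquitin chains. Its 20S core is a barrel of stacked rings: the outer alpha rings (pas genes) gate the entry and the inner beta rings (pbs genes) hold the proteolytic sites. The 19S cap sits on the barrel ends, where an ATPase ring (rpt genes) unfolds the substrate and feeds it in, while the other base subunits and the lid (rpn genes) bind ubiquitin and remove it. Subunits are needed in matched amounts, and in C. elegans the transcription factor SKN-1A raises the genes together when proteasome capacity is short.

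The groups were 3 altered strains and wild type, each as 3 pools of 3000 synchronised L4 worms prepared on separate days. The strain labelled crh-1 null carries the nn3315 allele of crh-1, which encodes the worm CREB transcription factor. The strain labelled tax-6 null is RB1667 with tax-6(ok2065), an allele of the calcineurin catalytic subunit gene. The strain labelled aak-2 o/e is AGD383, an N2 line with the transgene uthIs202, in which residues 1 to 321 of the AMPK subunit AAK-2 are fused to Tomato under the aak-2c promoter, with the unc-54 3′UTR and the rol-6 marker written as rol6. WT is N2 without a transgene, so the roller marker and the transgene cannot be told apart in the comparison with WT. Each altered strain is 1 strain, and pools were frozen at times meant to allow for differences in developmental rate.

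Values are log2 signals, so a difference of 1 is a doubling, and levels are compared between strains for one probe set and never between probe sets. Array medians lay between 5.32 and 5.45. Replicate arrays of one strain correlated at 0.993 to 0.994 for crh-1 null, 0.974 to 0.994 for tax-6 null, 0.989 to 0.993 for aak-2 o/e and 0.993 to 0.995 for WT (Pearson's r over the probe sets tested). The array of tax-6 null replicate 1 stood apart from the other two tax-6 null arrays, and results are given with and without it where it matters.

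The targeted genes did not check the labels. The detected crh-1 probe set read 8.61, 8.43 and 8.81 in the arrays labelled crh-1 null, against 7.06, 7.18 and 7.24 in WT, which goes against a loss of the transcript (log2 change 1.46, adjusted p = 1.57e-05, limma). One tax-6 probe set read 3.43, 3.32 and 2.98 in tax-6 null, against 4.02, 3.55 and 3.55 in WT, too dim to test. For aak-2, 1 probe set read 8.89, 8.43 and 8.46 in aak-2 o/e, against 9.20, 9.18 and 8.62 in WT, and the other read 6.47, 6.28 and 6.58, against 6.80, 7.01 and 6.92 in WT, so neither was higher in aak-2 o/e (log2 change -0.41 and -0.47, adjusted p = 0.126 and 0.0129). The source field of the aak-2 o/e samples also reads null where title and strain describe overexpression. Where these probe sets lie relative to the deletions and the transgene was not given, so the strain names below are those of the labels.

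Proteasome subunit transcripts were lower in the tax-6 null strain, across both rings of the core, the whole ATPase ring and nearly the whole lid. Of the 31 members, 25 were called lower and 0 higher than WT at an adjusted p under 0.05 (limma, Benjamini-Hochberg over all 13396 probe sets tested), where 26.3% of all genes tested were called lower and 18.7% higher. At an unadjusted p under 0.05 the counts were 29 lower and 0 higher, where 30.6% of all genes were lower and 21.4% higher at that p. The median log2 change was -0.51 over the members and -0.09 over all genes tested. In 29 members every tax-6 null array lay below every WT array, a pattern that 32% of all genes showed. All 31 changes were below 0, as were 58.1% of those of all genes. In whole animals, fewer cells that express a gene and less RNA per cell cannot be told apart.

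**Figure D1:**
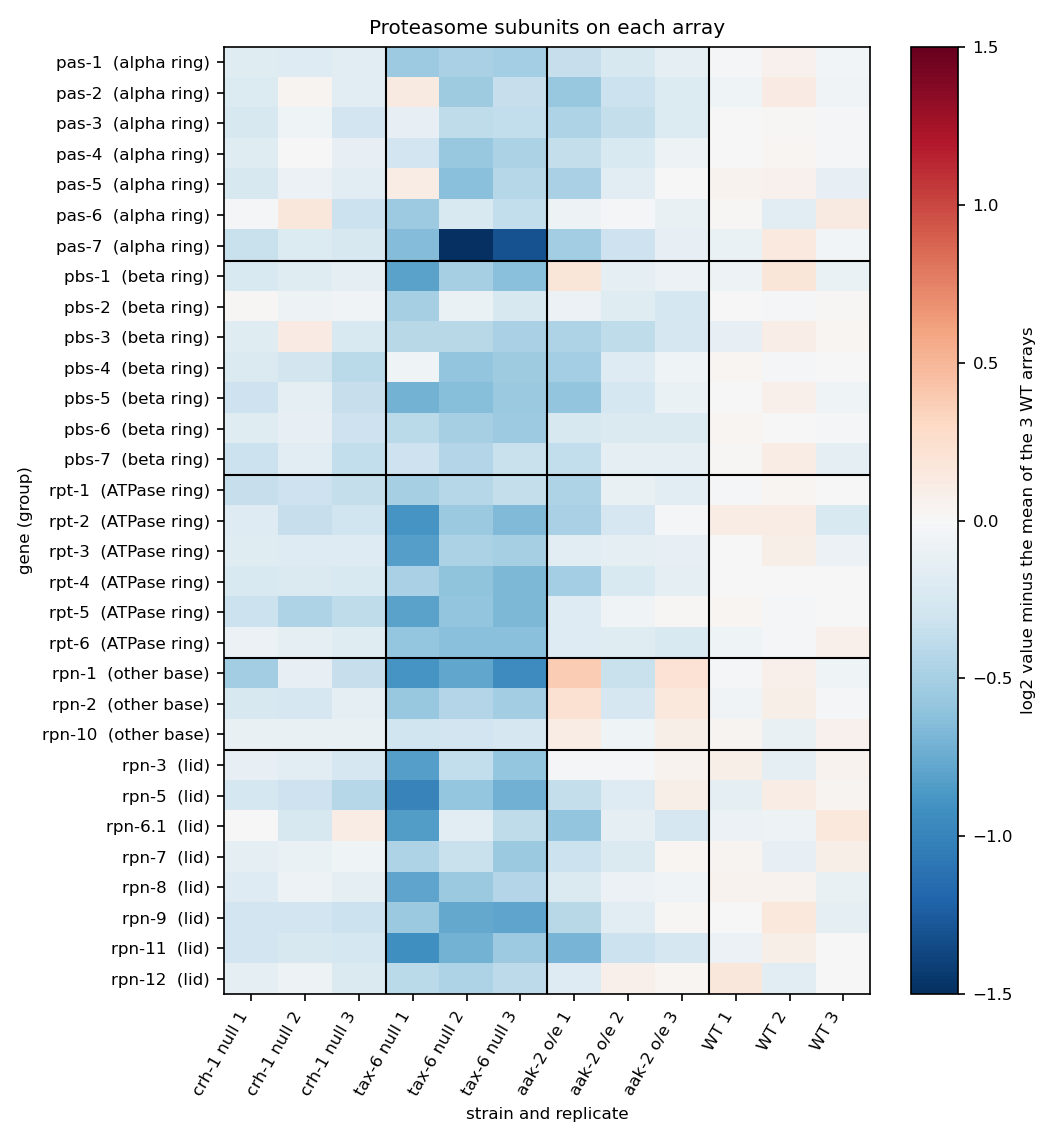
Each row is a subunit gene, ordered by its place in the proteasome, and each column an array; colour gives the log2 value minus the mean of the 3 WT arrays. All 31 rows are blue in tax-6 null replicates 2 and 3, while pas-2 and pas-5 are pale red in replicate 1 and rpn-1 and rpn-2 are pale red in 2 of the 3 aak-2 o/e arrays.

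In the alpha ring 4 of 7 genes were called lower in tax-6 null, and the log2 changes ran from -1.16 to -0.25, the widest span of the 5 groups of subunits. The largest change among the members was that of pas-7, an alpha ring subunit: it read 9.98, 9.10 and 9.32 in tax-6 null, against 10.52, 10.76 and 10.58 in WT. That is a log2 change of -1.16 ± 0.19 (SE, n = 3 each), or 0.448-fold, with an adjusted p of 0.000465. The tax-6 null replicates lay far apart for pas-7, and the highest of them was below the lowest WT array. In the arrays labelled crh-1 null pas-7 read 10.29, 10.41 and 10.38, and in aak-2 o/e 10.10, 10.32 and 10.50, all below WT but not called (adjusted p = 0.424 and 0.230).

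Another alpha subunit, pas-1, was tight: it read 11.09, 11.15 and 11.14 in tax-6 null, against 11.62, 11.70 and 11.60 in WT. Its log2 change was -0.51 ± 0.09 (adjusted p = 0.000720). Values of 11.45, 11.44 and 11.48 in crh-1 null and 11.29, 11.40 and 11.50 in aak-2 o/e lay between those of tax-6 null and WT. By contrast pas-3 missed the threshold in tax-6 null, where it read 12.22, 11.97 and 11.98, against 12.35, 12.36 and 12.33 in WT (adjusted p = 0.0525). The same gene was called lower in aak-2 o/e, at 11.89, 11.99 and 12.14 (log2 change -0.34 ± 0.11, adjusted p = 0.0343). It read 12.11, 12.28 and 12.07 in crh-1 null.

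The 3 alpha genes not called in tax-6 null were pas-2, pas-3 and pas-5. In tax-6 null replicate 1 pas-2 read 12.28 and pas-5 12.45, at the level of WT (12.15 ± 0.11 and 12.34 ± 0.10, SD, n = 3), while the other two tax-6 null arrays read 11.62 and 11.81 for pas-2 and 11.71 and 11.91 for pas-5. Without tax-6 null replicate 1 all 3 were called, with log2 changes of -0.44 for pas-2, -0.37 for pas-3 and -0.53 for pas-5 (adjusted p = 0.0209, 0.0157 and 0.0109). Near the threshold, pas-3 was also called under other alternatives, among them leaving out aak-2 o/e replicate 1 (adjusted p = 0.0434) or 3 (adjusted p = 0.0491). The opposite held for pas-6, which was called with all arrays (log2 change -0.38, adjusted p = 0.0437) and not without that array (log2 change -0.30, adjusted p = 0.121). Its call was also lost on leaving out tax-6 null replicate 3, crh-1 null replicate 1, WT replicate 1, WT replicate 3 or any one of the aak-2 o/e arrays (adjusted p up to 0.145).

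In the beta ring 5 of 7 genes were called lower in tax-6 null, and all 7 had every tax-6 null array below every WT array. The ring holds 3 subunits with proteolytic sites, pbs-1, pbs-2 and pbs-5, and 2 of these were called. The subunit with the caspase-like site, pbs-1, read 11.38, 11.68 and 11.56 in tax-6 null, against 12.10, 12.36 and 12.08 in WT (log2 change -0.64 ± 0.13, 0.642-fold, adjusted p = 0.00142). It read 11.96, 12.00 and 12.04 in crh-1 null and 12.37, 12.04 and 12.10 in aak-2 o/e, so that aak-2 o/e overlapped WT.

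The subunit with the chymotrypsin-like site, pbs-5, read 11.36, 11.42 and 11.51 in tax-6 null, against 12.05, 12.14 and 12.00 in WT (log2 change -0.63 ± 0.13, adjusted p = 0.00178). Its values in crh-1 null (11.75, 11.91 and 11.72) and in aak-2 o/e (11.47, 11.80 and 11.97) also lay below every WT array, with adjusted p of 0.182 and 0.0779. The other proteolytic subunit, pbs-2, which has the trypsin-like site, had the smallest log2 change of the 3 in tax-6 null (-0.28 ± 0.11, adjusted p = 0.0618). The remaining uncalled beta gene, pbs-4, had a log2 change of -0.40 ± 0.15 (adjusted p = 0.0536) and of -0.56 without tax-6 null replicate 1 (adjusted p = 0.00450).

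Among the structural beta subunits, pbs-6 read 12.01, 11.91 and 11.86 in tax-6 null, against 12.44, 12.41 and 12.38 in WT (log2 change -0.48 ± 0.09, adjusted p = 0.00117). In crh-1 null it read 12.23, 12.29 and 12.10, and in aak-2 o/e 12.17, 12.20 and 12.19. For pbs-7 the arrays read 12.18, 12.04 and 12.15 in tax-6 null, against 12.51, 12.60 and 12.35 in WT (log2 change -0.36 ± 0.11, adjusted p = 0.0190), a call lost without WT replicate 1, WT replicate 2 or tax-6 null replicate 2 (adjusted p up to 0.0749). It read 12.16, 12.31 and 12.11 in crh-1 null, where it had the smallest adjusted p of the core (0.0953), and 12.11, 12.33 and 12.34 in aak-2 o/e. The last of these subunits, pbs-3, read 11.58, 11.58 and 11.51 in tax-6 null and 11.54, 11.62 and 11.75 in aak-2 o/e, against 11.87, 12.09 and 12.03 in WT. It was called lower in both, by -0.44 ± 0.12 in tax-6 null (adjusted p = 0.00914) and by -0.36 ± 0.12 in aak-2 o/e (adjusted p = 0.0331). In crh-1 null it read 11.82, 12.12 and 11.77 and overlapped WT.

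**Figure D2:**
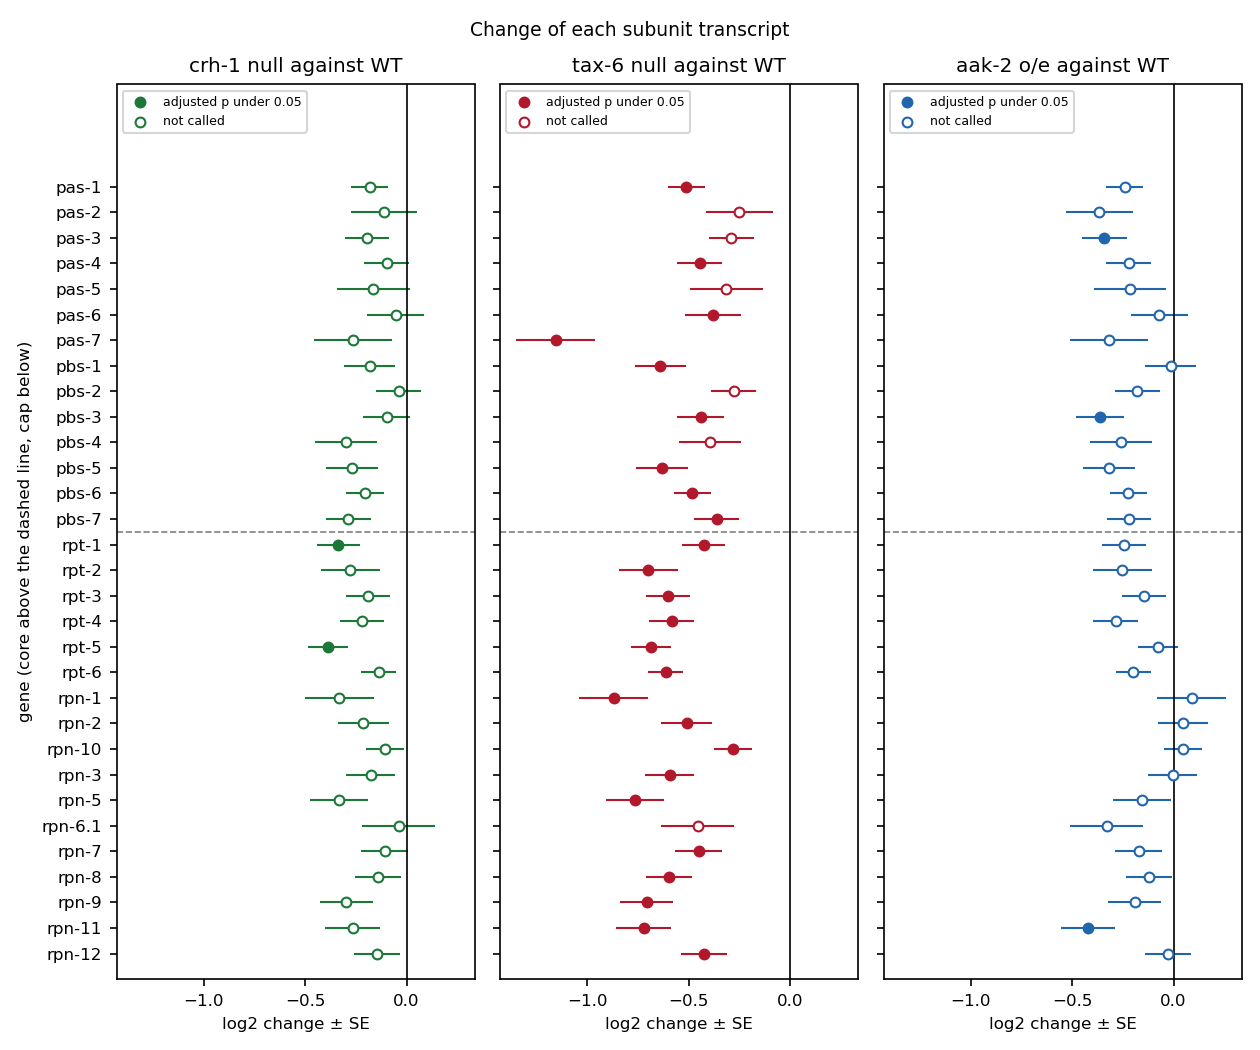
Log2 change of each subunit transcript against WT with its standard error from the limma fit (n = 3 arrays per strain); filled points have an adjusted p under 0.05. There are 25 filled points in the tax-6 null panel, 3 in that of aak-2 o/e and 2 in that of crh-1 null, and all of them lie left of 0.

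The ATPase ring was lower throughout in tax-6 null: all 6 of its genes were called, with log2 changes of -0.43 to -0.70, and every tax-6 null array lay below every WT array for each. The smallest adjusted p of any member belonged to rpt-6, which read 6.997, 6.95 and 6.94 in tax-6 null, against 7.52, 7.56 and 7.65 in WT (log2 change -0.61 ± 0.09, 0.654-fold, adjusted p = 0.000136). It read 7.49, 7.43 and 7.39 in crh-1 null and 7.38, 7.39 and 7.35 in aak-2 o/e.

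For rpt-5 the arrays read 10.86, 10.72 and 10.81 in crh-1 null, 10.38, 10.59 and 10.51 in tax-6 null and 10.99, 11.13 and 11.20 in aak-2 o/e, against 11.21, 11.17 and 11.17 in WT. It was called lower in tax-6 null (log2 change -0.69 ± 0.10, 0.621-fold, adjusted p = 0.000152) and in crh-1 null (-0.39 ± 0.10, 0.766-fold, adjusted p = 0.0154). The 3 crh-1 null arrays sat between those of tax-6 null and WT without touching either, whereas aak-2 o/e overlapped WT.

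Next in the ring, rpt-1 read 11.95, 11.98 and 11.93 in crh-1 null, 11.80, 11.87 and 11.94 in tax-6 null and 11.83, 12.18 and 12.13 in aak-2 o/e, against 12.28, 12.32 and 12.28 in WT. The log2 change was -0.34 ± 0.11 in crh-1 null (adjusted p = 0.0442) and -0.43 ± 0.11 in tax-6 null (adjusted p = 0.00666), and the arrays of those strains overlapped each other. For rpt-3 the values were 12.10, 12.09 and 12.09 in crh-1 null, 11.46, 11.81 and 11.78 in tax-6 null and 12.12, 12.13 and 12.16 in aak-2 o/e, against 12.29, 12.37 and 12.19 in WT. All altered arrays of rpt-3 lay below WT, tax-6 null lowest, with a log2 change of -0.60 ± 0.11 there (adjusted p = 0.000846). Values of rpt-4 were 12.01, 12.01 and 12.00 in crh-1 null, 11.74, 11.63 and 11.56 in tax-6 null and 11.72, 12.01 and 12.10 in aak-2 o/e, against 12.23, 12.22 and 12.24 in WT. Every altered array of rpt-4 lay below WT, and it was called in tax-6 null (-0.58 ± 0.11, adjusted p = 0.00103) and not in the other two strains (adjusted p = 0.204 in crh-1 null and 0.0653 in aak-2 o/e).

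The base subunits outside the ATPase ring are scaffolds and ubiquitin receptors, and all 3 were called lower in tax-6 null. The scaffold rpn-1 read 10.26, 10.38 and 10.20 in tax-6 null, against 11.13, 11.23 and 11.09 in WT (log2 change -0.87 ± 0.17, 0.547-fold, adjusted p = 0.00131). In crh-1 null it read 10.62, 11.03 and 10.81, below WT in every array but not called (adjusted p = 0.219). In aak-2 o/e it read 11.53, 10.82 and 11.37, with 2 arrays above WT and 1 below.

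The ubiquitin receptor rpn-10 read 11.04, 11.04 and 11.04 in crh-1 null, 10.84, 10.86 and 10.88 in tax-6 null and 11.26, 11.08 and 11.23 in aak-2 o/e, against 11.18, 11.04 and 11.21 in WT. The crh-1 null arrays and WT replicate 2 held an identical value, 11.0362. On this chosen probe set the change of rpn-10 in tax-6 null was the smallest of the called members (-0.28 ± 0.09, 0.823-fold, adjusted p = 0.0283). That call was lost without WT replicate 1, WT replicate 3, tax-6 null replicate 2 or tax-6 null replicate 3 (adjusted p up to 0.0936).

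In the lid, 7 of 8 genes were called lower in tax-6 null. The deubiquitinase rpn-11, which removes the chain as the substrate enters, read 9.81, 10.02 and 10.18 in tax-6 null and 10.03, 10.41 and 10.48 in aak-2 o/e, against 10.64, 10.82 and 10.73 in WT. It was called lower in both, with log2 changes of -0.72 ± 0.13 in tax-6 null (0.606-fold, adjusted p = 0.00103) and -0.42 ± 0.13 in aak-2 o/e (0.746-fold, adjusted p = 0.0324). In crh-1 null it read 10.44, 10.49 and 10.46, also below every WT array (adjusted p = 0.218). Its partner rpn-8 had a log2 change of -0.60 ± 0.11 in tax-6 null (adjusted p = 0.00109).

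The lid subunit rpn-5 read 9.56, 9.98 and 9.85 in tax-6 null, against 10.41, 10.67 and 10.60 in WT (log2 change -0.77 ± 0.14, 0.588-fold, adjusted p = 0.00108), with 10.29, 10.26 and 10.13 in crh-1 null and 10.20, 10.37 and 10.65 in aak-2 o/e. Another, rpn-9, read 10.24, 10.04 and 10.01 in tax-6 null, against 10.79, 10.97 and 10.65 in WT (-0.71 ± 0.13, adjusted p = 0.000890), with 10.52, 10.52 and 10.49 in crh-1 null and 10.39, 10.63 and 10.82 in aak-2 o/e. For both genes crh-1 null lay wholly below WT, with adjusted p of 0.140 and 0.145, while aak-2 o/e overlapped WT.

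The lid gene not called in tax-6 null was rpn-6.1, whose product clamps the lid to the core and whose overexpression is known to raise resistance to proteotoxic stress in C. elegans. It read 10.04, 10.72 and 10.50 in tax-6 null, against 10.79, 10.80 and 11.03 in WT (log2 change -0.46 ± 0.18, adjusted p = 0.0589). Every tax-6 null array was below WT, but replicate 1 was much the lowest: without it the change was -0.27 (adjusted p = 0.202). In crh-1 null rpn-6.1 read 10.89, 10.63 and 10.99 and overlapped WT, and in aak-2 o/e it read 10.28, 10.73 and 10.62, all below WT (adjusted p = 0.184).

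**Figure D3:**
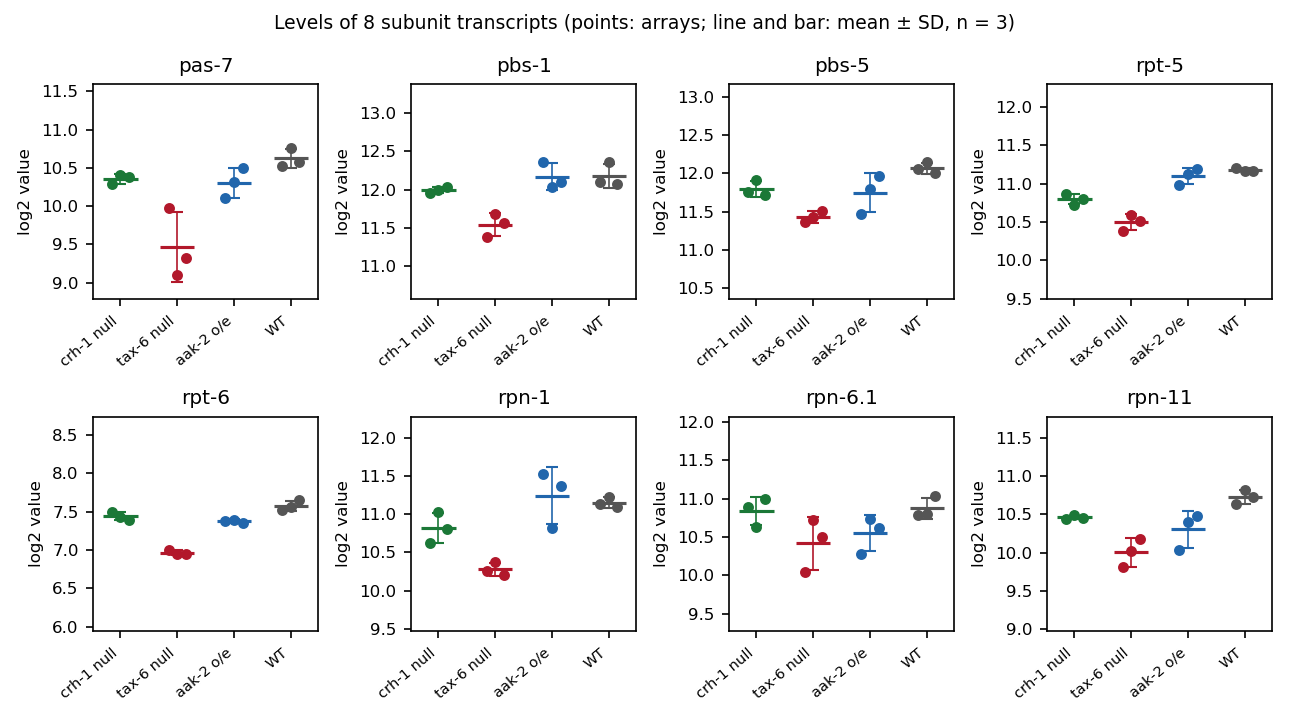
Log2 values of 8 subunit transcripts in the 4 strains, with 1 point per array and the mean ± SD (n = 3); every panel spans the same number of log2 units. The tax-6 null points lie below the WT points in all 8 panels, and the aak-2 o/e points of pbs-1, rpt-5 and rpn-1 overlap those of WT.

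In the strain labelled crh-1 null few subunits passed the test. Only rpt-5 and rpt-1 were called, both lower, and 0 were called higher, where 10.7% of all genes tested were called lower and 9.88% higher. At an unadjusted p under 0.05 there were 6 lower and 0 higher, against 16.5% lower and 14.4% higher for all genes. The log2 changes ran from -0.39 to -0.04 and all 31 were below 0, as were 51.9% of all genes tested. The median was -0.19 over the members and -0.01 over all genes. In 18 members, 8 of the core and 10 of the cap, every crh-1 null array lay below every WT array, which 22.8% of all genes did. Neither call was stable: with 1 array left out, rpt-5 was lost when crh-1 null replicate 2 was dropped and likewise for WT replicate 1, and the count was then 0. It was 1 without WT replicate 2 or 3, without crh-1 null replicate 1 or 3, without tax-6 null replicate 2 or 3, and without aak-2 o/e replicate 3, since rpt-1 was lost in each.

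In the strain labelled aak-2 o/e 3 subunits were called lower, pas-3, pbs-3 and rpn-11, and 0 higher, where 19.3% of all genes tested were called lower and 14.2% higher. At an unadjusted p under 0.05 there were 10 lower and 0 higher, where all genes gave 28.6% lower and 16.1% higher. The median log2 change was -0.22 over the members and -0.15 over all genes tested. Of the 31 changes, 28 were below 0, as were 66.5% of all genes. In 17 members every aak-2 o/e array lay below every WT array, a pattern of 35.2% of all genes, and these were 11 of the 14 core members and 6 of the 17 cap members. The count of calls was 0 without WT replicate 2, WT replicate 3 or aak-2 o/e replicate 1, 1 without WT replicate 1 or aak-2 o/e replicate 2, 6 without aak-2 o/e replicate 3 and 7 without tax-6 null replicate 1. None of the 3 calls held with every array left out in turn (adjusted p up to 0.105 for pas-3, 0.110 for pbs-3 and 0.113 for rpn-11).

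The 3 members that were not below WT in aak-2 o/e were the non-ATPase base subunits rpn-1, rpn-2 and rpn-10. Their log2 changes were 0.09, 0.05 and 0.05 (adjusted p = 0.728, 0.818 and 0.739), and their arrays overlapped WT. Averaged over these 3 genes, the deviation from WT was 0.24, -0.21 and 0.16 in the 3 aak-2 o/e arrays, so replicate 2 went the other way. The lid averaged -0.36, -0.14 and -0.04 in the same arrays and the ATPase ring -0.33, -0.16 and -0.11.

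Replicates of aak-2 o/e differed in level. Over all 31 members the mean deviation from WT was -0.29, -0.19 and -0.08 in replicates 1, 2 and 3. Replicate 1 held the lowest value of the 3 in 11 of 14 core members and 13 of 17 cap members. The same mean was -0.21, -0.16 and -0.23 in crh-1 null, -0.54, -0.52 and -0.54 in tax-6 null, and -0.01, 0.03 and -0.02 in WT. On this mean the 3 tax-6 null arrays were alike, and each lay below the arrays of every other strain.

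Core and cap were compared as each array's mean deviation from WT over the 14 core members and over the 17 cap members, with no test. In tax-6 null the core mean was -0.47 ± 0.09 and the cap mean -0.59 ± 0.09 (SD, n = 3), and the core minus cap difference was 0.12 ± 0.18. Per array the difference was 0.32, -0.03 and 0.06, so it rested on replicate 1, and without that array it was 0.02. Medians moved likewise: the median log2 change was -0.42 for the core and -0.60 for the cap with all arrays, and -0.51 for the core and -0.50 for the cap without tax-6 null replicate 1. By count, 9 of 14 core members and 16 of 17 cap members were called lower, and 12 of 14 and 16 of 17 without that array.

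That array's profile was uneven within the core as well. In tax-6 null replicate 1 the alpha ring averaged -0.27, the beta ring -0.46, the ATPase ring -0.68 and the lid -0.73. In replicates 2 and 3 the same groups averaged -0.62 and -0.54 for the alpha ring, -0.46 and -0.47 for the beta ring, -0.54 and -0.58 for the ATPase ring and -0.49 and -0.55 for the lid.

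In aak-2 o/e the order was the other way round, with a core mean of -0.24 ± 0.10, a cap mean of -0.14 ± 0.11 and a difference of -0.10 ± 0.02 (SD, n = 3). The difference was -0.11, -0.07 and -0.11 in the 3 arrays, all below those of WT, which were -0.02, 0.04 and -0.02. The cap mean includes the 3 non-ATPase base genes, whose mean log2 change in aak-2 o/e was 0.06. The means of the other groups lay closer together, at -0.25 for the alpha ring, -0.23 for the beta ring, -0.20 for the ATPase ring and -0.18 for the lid. Per array the core averaged -0.35, -0.23 and -0.14, the ATPase ring -0.33, -0.16 and -0.11 and the lid -0.36, -0.14 and -0.04. In replicate 1 the ATPase ring and the lid thus lay at the level of the core. The difference without the 3 base genes was not computed or tested. In crh-1 null the core mean was -0.17 ± 0.08 and the cap mean -0.22 ± 0.01, and the difference of 0.04 ± 0.08 overlapped WT, with 0.01, 0.13 and -0.01 in the arrays.

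**Figure D4:**
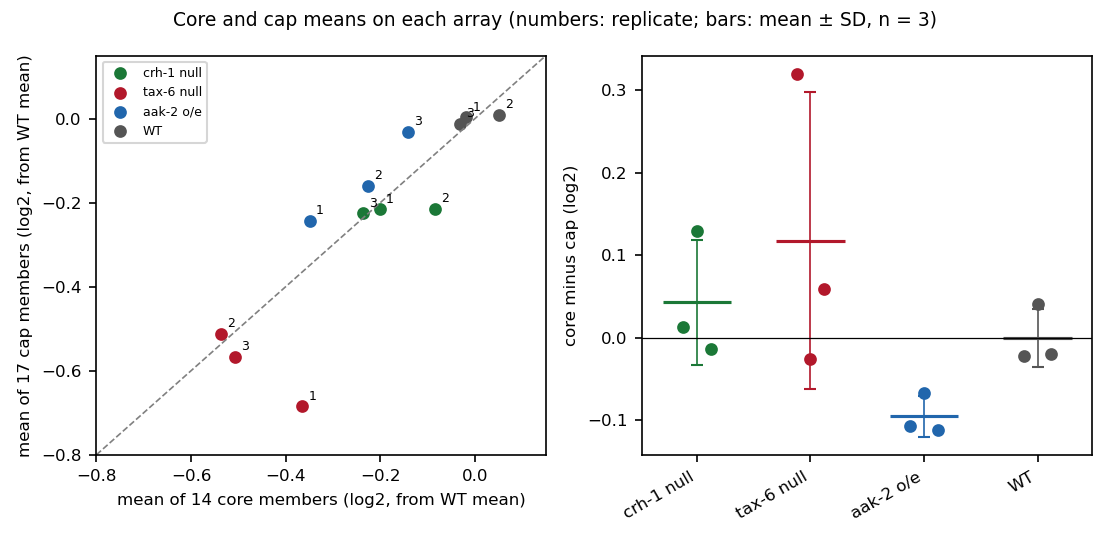
Left, the mean deviation from WT of 17 cap members against that of 14 core members, 1 point per array with its replicate number and a dashed line of equality; right, the core minus cap difference with its mean ± SD (n = 3). One tax-6 null array lies at a difference of 0.32, far from the other two at -0.03 and 0.06, and the 3 aak-2 o/e arrays lie between -0.11 and -0.07.

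The altered strains were also compared with each other. Subunit transcripts were lower in tax-6 null than in aak-2 o/e, with 17 members called lower and 0 higher, where 22.4% of all genes tested were called lower and 27.6% higher. At an unadjusted p under 0.05 there were 21 lower and 0 higher, against 2571 lower and 3211 higher of the 10365 genes. The median log2 difference was -0.31 over the members and 0.05 over all genes. Of the 17, 13 were in the cap and 4 in the core. The largest was rpn-1, with 10.28 ± 0.09 in tax-6 null, against 11.24 ± 0.37 in aak-2 o/e (SD, n = 3; log2 difference -0.96 ± 0.17, 0.514-fold, adjusted p = 0.000490). All 3 non-ATPase base subunits, 5 of 6 ATPases and 5 of 8 lid subunits were called. In the core the 4 called were pas-1, pas-7, pbs-1 and pbs-6. The core count was 2 without tax-6 null replicate 3, aak-2 o/e replicate 2 or aak-2 o/e replicate 3, where 12, 11 and 11 cap members were called. Cap medians lay at -0.45 and core medians at -0.18 with all arrays, and at -0.38 and -0.27 without tax-6 null replicate 1.

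Between the strains labelled crh-1 null and tax-6 null, 19 members were called higher in crh-1 null and 0 lower, where 21.4% of all genes tested were called higher and 16.6% lower. At an unadjusted p under 0.05 there were 23 higher and 0 lower, where 27.2% of all genes were higher and 19.9% lower. The median log2 difference was 0.34 over the members and 0.08 over all genes. The 19 were 7 core and 12 cap members. The largest difference was that of pas-7 (0.89 ± 0.19, adjusted p = 0.00345), followed by rpn-1 (0.54 ± 0.17, adjusted p = 0.0253) and rpt-6 (0.48 ± 0.09, adjusted p = 0.00115). The count was 9 without crh-1 null replicate 1, 7 without crh-1 null replicate 2, 12 without crh-1 null replicate 3, 12 without tax-6 null replicate 1 and 8 without tax-6 null replicate 3.

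Between crh-1 null and aak-2 o/e, 1 member was called, where 46.4% of all genes tested were called. It was rpt-5, lower in crh-1 null, at 10.80 ± 0.07 in crh-1 null and 11.10 ± 0.11 in aak-2 o/e (SD, n = 3; log2 difference -0.31 ± 0.10, adjusted p = 0.0242). The median log2 difference was 0.02 over the members and 0.15 over all genes. The count was 0 when aak-2 o/e replicate 3 was dropped and also when crh-1 null replicate 3 was, and it was 2 without aak-2 o/e replicate 2. The 3 comparisons with WT share the WT arrays, and each direct comparison shares its arrays with those, so their values are given side by side and not as repeats of each other.

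A further probe set on the array was available for 6 members, and in tax-6 null it was called lower for 5 of them. The second sets changed by -0.39 for pbs-3, -0.52 for pbs-7, -0.58 for rpn-10, -0.28 for rpt-1 and -0.74 for rpt-2 (adjusted p = 0.0159, 0.00167, 0.000784, 0.0407 and 0.00159). For rpn-10 the chosen probe set changed by -0.28, so its 2 probe sets differed in the size of the change. The second set of rpn-2 was dim, at 5.03 in tax-6 null and 5.12 in WT, and did not pass the test (adjusted p = 0.765). Of the 6, 1 was called lower in aak-2 o/e, that of pbs-7 (-0.35, adjusted p = 0.0237), whose chosen set was not. For crh-1 null the adjusted p of the 6 second sets ran from 0.111 to 0.958. This comparison was added after the data were seen.

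Of 7 genes of proteasome-associated factors tested (8 listed), 5 were called lower in tax-6 null and 0 higher. Of all genes tested, 26.3% were called lower and 18.7% higher in that strain. The shares were 19.3% and 14.2% in aak-2 o/e and 10.7% and 9.88% in crh-1 null. The lid paralogue rpn-6.2 averaged 8.38 in tax-6 null and 9.38 in WT (log2 change -0.999 ± 0.11, adjusted p = 1.98e-05). The deubiquitinases ubh-4 and usp-14, which trim chains at the cap, changed by -0.69 ± 0.14 and -0.66 ± 0.16 (adjusted p = 0.00155 and 0.00480). In aak-2 o/e rpn-6.2 was called higher, at 10.11 against 9.38 in WT (0.73 ± 0.11, adjusted p = 0.000305), and ubh-4 lower (-0.40 ± 0.14, adjusted p = 0.0457), that of ubh-4 being lost on leaving out 10 of the 12 arrays in turn (adjusted p up to 0.159). In crh-1 null 0 of 7 were called, with 1 lower and 0 higher at an unadjusted p under 0.05. Of the 9 sperm markers tested, 6 were lower in tax-6 null, 9 were higher in aak-2 o/e and 0 were called in crh-1 null. Their log2 summed level was 12.30 to 12.64 in crh-1 null, 12.22 to 12.43 in tax-6 null and 14.66 to 14.87 in aak-2 o/e, against 12.66 to 12.80 in WT. The part of sperm in the rpn-6.2 values was not tested.

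Among 9 regulators tested (10 listed), 3 were called higher and 1 lower in tax-6 null, where 18.7% and 26.3% of all genes were. The count higher was 1 without WT replicate 1, WT replicate 3 or tax-6 null replicate 2. The one lower was png-1, the peptide N-glycanase that processes SKN-1A, at 7.50 in tax-6 null and 8.06 in WT (log2 change -0.56 ± 0.11, adjusted p = 0.00131). The skn-1 gene, which encodes SKN-1A among other isoforms, was higher, at 9.16 against 8.37 in WT (0.79 ± 0.21, adjusted p = 0.00942), and so was daf-16, the FOXO factor (0.48 ± 0.16, adjusted p = 0.0287). The call of daf-16 was lost without WT replicate 1 or 3 and without tax-6 null replicate 1 or 2 (adjusted p up to 0.110). The third was wdr-23, a ligase adaptor that targets SKN-1 (0.75 ± 0.26, adjusted p = 0.0355), whose call was lost on leaving out any 1 WT array and without tax-6 null replicate 2 or 3 (adjusted p up to 0.137). In aak-2 o/e skn-1 was higher (0.68 ± 0.21, adjusted p = 0.0277) and png-1 lower (-0.36 ± 0.11, adjusted p = 0.0229), where 14.2% and 19.3% of all genes were. In crh-1 null 0 of 9 were called (limma), where 9.88% of all genes were called higher and 10.7% lower. At an unadjusted p under 0.05, 2 of the 9 were higher and 1 lower in crh-1 null. Calls in aak-2 o/e were lost without WT replicate 2 or aak-2 o/e replicate 2 for both genes, without WT replicate 3 or aak-2 o/e replicate 1 or 3 for skn-1, and without WT replicate 1 for png-1 (adjusted p up to 0.111 and 0.0858). Which isoforms the skn-1 probe set detects was not given. The protease ddi-1, which activates SKN-1A, was not called in tax-6 null (-0.26 ± 0.11, adjusted p = 0.0805).

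Of 6 ubiquitin, activating and conjugating genes tested (29 listed, 7 matched to a probe set), 0 were called in any altered strain, where an unadjusted p under 0.05 gave 1 lower in crh-1 null, 1 lower in tax-6 null and 0 either way for aak-2 o/e (limma). The one lower at an unadjusted p in tax-6 null was uev-1, an E2 variant, at 11.42 against 11.72 in WT (log2 change -0.30 ± 0.11, adjusted p = 0.0521). The polyubiquitin gene ubq-1 had a log2 change of -0.11 in tax-6 null (adjusted p = 0.393). Of 21 cullin ligase genes tested, 4 were called higher and 6 lower in tax-6 null, near the 18.7% and 26.3% of all genes, and 2 lower without WT replicate 2 or 3 lower without tax-6 null replicate 3. In crh-1 null 1 was called, lower, where 10.7% of all genes were called lower and 9.88% higher. It was zif-1, a substrate adaptor (-1.07 ± 0.19, adjusted p = 0.00121), which was also called lower in tax-6 null (-0.80, adjusted p = 0.00429). In tax-6 null the cullin cul-6 was higher (1.47 ± 0.20, adjusted p = 9.36e-05) and cul-1, the scaffold of SCF ligases, lower (-0.87 ± 0.16, adjusted p = 0.00115). Of these genes, 1 was called higher in aak-2 o/e, cul-3 (1.09 ± 0.20, adjusted p = 0.00113), and 2 lower, where 14.2% and 19.3% of all genes were. In tax-6 null cul-3 was called lower (-0.55, adjusted p = 0.0397), a call lost on leaving out 7 of the 12 arrays in turn.

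Of 13 genes of the CDC-48 segregase and chain handling, 6 were called lower and 0 higher in tax-6 null. The shares of all genes tested were 26.3% and 18.7%. With 1 array left out, 4 to 7 of the 13 were called lower. The segregase gene cdc-48.2 averaged 10.02 in tax-6 null and 10.92 in WT (-0.90 ± 0.10, adjusted p = 2.25e-05), and the shuttle factor ubql-1 changed by -0.55 ± 0.13 (adjusted p = 0.00579). The paralogue of cdc-48.2, cdc-48.1, did not pass the test (-0.28 ± 0.16, adjusted p = 0.192). Counts were 1 higher and 1 lower in aak-2 o/e, and 0 either way without WT replicate 1 or 2. Of all genes, 14.2% were called higher and 19.3% lower in aak-2 o/e. In crh-1 null 0 were called (limma), also at an unadjusted p under 0.05. Of all genes, 9.88% were called higher and 10.7% lower in crh-1 null. Of the 8 subunits of the CCT chaperonin, another large ring complex, 3 were called lower in tax-6 null, where 26.3% of all genes were. Their median log2 change was -0.27, and 1 was called without WT replicate 2 or tax-6 null replicate 3. The 1 called lower in aak-2 o/e was cct-3 (-0.48, adjusted p = 0.0456), lost on leaving out 9 of the 12 arrays in turn. In crh-1 null 0 were called, also at an unadjusted p under 0.05.

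Ribosomal protein genes served as a set of abundant transcripts of another large complex. Of 74, 1 was called higher and 0 lower in tax-6 null, where 18.7% and 26.3% of all genes tested were. Their median log2 change was 0.02, where the proteasome members had -0.51. At an unadjusted p under 0.05 there were 3 higher and 0 lower, where 21.4% and 30.6% of all genes were. Their median was 0.01 in crh-1 null and -0.11 in aak-2 o/e, with 0 called in each (0 of them at an unadjusted p under 0.05 in crh-1 null, and 4, all lower, in aak-2 o/e). Of all genes, 10.7% were called lower and 9.88% higher in crh-1 null, and 19.3% and 14.2% in aak-2 o/e. In aak-2 o/e 68 of the 74 changes were below 0, as were 66.5% of those of all genes. Every aak-2 o/e array lay below every WT array for 32 of the 74, a pattern of 35.2% of all genes.

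**Figure D5:**
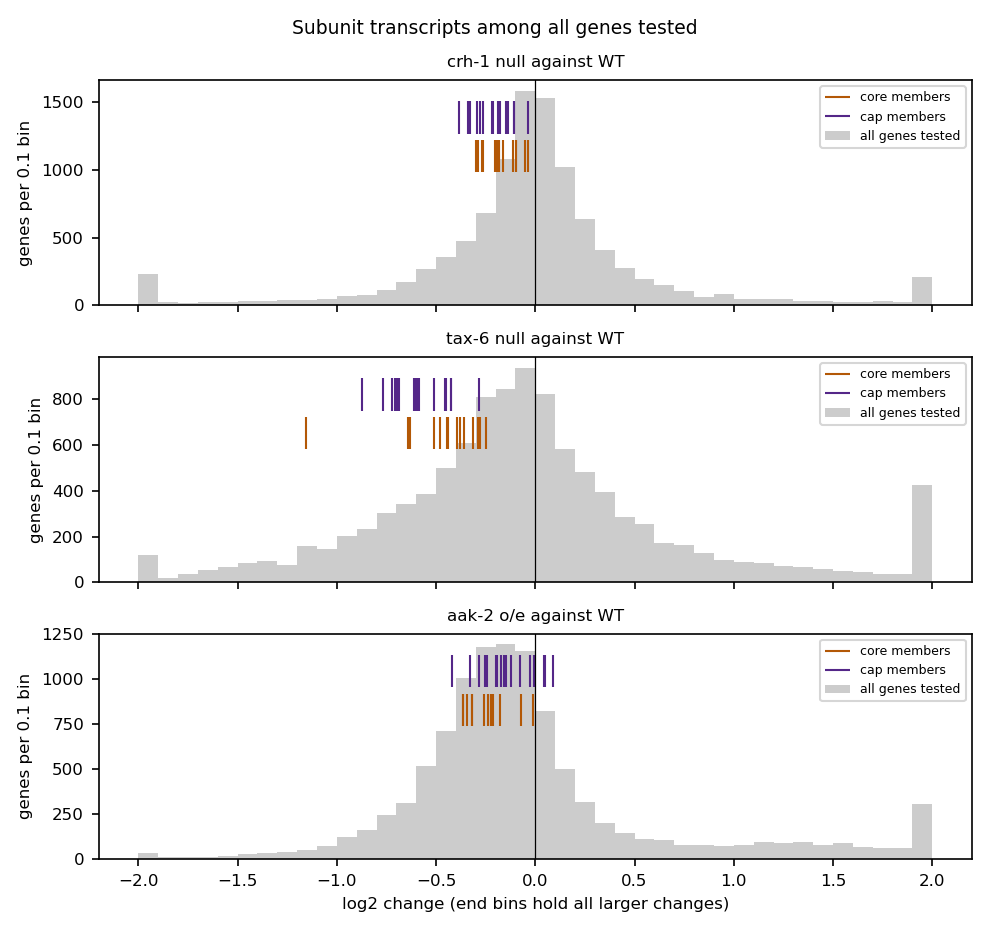
Histograms of the log2 change against WT of all 10365 genes tested, in bins of 0.1 with the larger changes collected in the end bins; ticks mark the 14 core and 17 cap members. In tax-6 null the ticks run from -1.16 to -0.25, left of the median of all genes at -0.09, while in aak-2 o/e they lie around its median of -0.15.

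Markers of tissues and stage moved with the strains in these whole animals. Of all genes tested, 10.7% were called lower and 9.88% higher in crh-1 null. The shares were 26.3% and 18.7% in tax-6 null and 19.3% and 14.2% in aak-2 o/e. Of 13 oocyte and eggshell markers, 6 were lower in crh-1 null, 12 higher in tax-6 null and 11 higher in aak-2 o/e, and their log2 summed level ran from 10.87 to 11.02 in crh-1 null, 13.03 to 13.26 in tax-6 null and 12.73 to 13.10 in aak-2 o/e, against 11.51 to 11.85 in WT. Of 10 body wall muscle markers, 3 were lower in tax-6 null, where they summed to 16.16 to 16.41, against 16.59 to 16.65 in WT. Of 10 intestine markers, 4 were lower and 1 higher in tax-6 null, with sums of 16.01 to 16.21, against 16.36 to 16.43 in WT. Of 12 neuron markers, 7 were higher in tax-6 null, with sums of 13.75 to 13.96, against 13.26 to 13.31 in WT. In crh-1 null 4 neuron markers were higher (sums of 13.46 to 13.48), and in aak-2 o/e 3 were lower (12.85 to 13.04). Of 15 germ cell markers, 1 was higher and 1 lower in tax-6 null, with sums of 13.49 to 14.03, against 13.92 to 14.02 in WT. In aak-2 o/e 3 germ cell markers were higher and 0 lower (14.19 to 14.42), and in crh-1 null 0 were higher and 1 lower (13.88 to 13.95). Of 8 epidermis markers, 2 were higher and 3 lower in tax-6 null, with sums of 16.98 to 17.04, against 17.10 to 17.22 in WT. In crh-1 null 2 epidermis markers were higher and 4 lower (sums of 16.79 to 16.88). In aak-2 o/e 1 was higher and 3 lower (17.04 to 17.15). The muscle sums of aak-2 o/e were 16.45 to 16.51 and the intestine sums 16.21 to 16.30, and in crh-1 null they were 16.67 to 16.73 and 16.27 to 16.27. In aak-2 o/e 2 muscle and 2 intestine markers were lower and 0 higher. In crh-1 null 0 muscle markers were called, and 1 intestine marker was higher and 2 lower. No marker of the oocyte, germ cell, muscle, intestine and epidermis lists was below the floor on all arrays of a strain. Of 6 adult stage markers, 4 were lower in crh-1 null, 2 higher and 1 lower in tax-6 null and 6 higher in aak-2 o/e. Their log2 changes in tax-6 null ran from -2.66 to 7.63, with a median of 0.48. In crh-1 null 2 of them were below the floor on all arrays. The adult stage list summed to 10.19 to 10.46 in crh-1 null, 12.59 to 13.10 in tax-6 null and 13.88 to 14.37 in aak-2 o/e, against 11.20 to 11.35 in WT. The part of tissue makeup and developmental stage in the lower proteasome transcripts was not tested.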

How the data were processed

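RNA from 12 pools of whole L4 worms, 3 for each of 4 strains, was hybridised to Affymetrix arrays. The log2 values deposited by the authors are normalized signals that run from 2.11 to 16.81. The tools behind these values, per the submitters' processing notes, are GCOS 1.4 and the GCRMA method. Of 22625 probe sets, 20766 carried 1 gene symbol, 887 several and 895 none, and 77 were controls. Symbols came from the platform annotation, updated through RefSeq's WBcel235 gene table.

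Probe sets with a value of at least 4 on 3 or more arrays were tested, which left 13396. One mean per strain was fitted to all 12 arrays with limma 3.58.1 in R 4.3.3 (lmFit, eBayes, 8 residual degrees of freedom), two-sided, with Benjamini-Hochberg adjustment over all probe sets tested and a threshold of 0.05, for 6 contrasts. The script was tested on simulated data. Of the members' chosen probe sets, 20 have a suffix that marks possible cross-hybridisation. The number of arrays limits the precision, and pools were prepared on separate days. No batch label was given in the sources used here.

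Any member could be named, and values in every array were given for the members with the smallest adjusted p in each strain, those with the largest called changes, and rpn-6.1, rpn-10, pbs-5, rpt-3 and pas-3. Genes of other lists were named by smallest adjusted p, up to 3 in each list and strain, while ddi-1 and cdc-48.1 were chosen after their values were seen. The members and the lists were chosen with earlier results of these data known. Alternatives covered the dim filter, quantile normalization, centring, averaged probe sets, 2 strains in the fit, array weights, a replicate block, the threshold and each array left out.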

Additional observations from a re-analysis of the deposited data

How the results depend on the processing

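The result in tax-6 null was the steadiest. Against WT its count of 25 called members lay between 22 and 31 under every alternative run, was 24 with the replicate block and ran from 22 to 28 with 1 array left out, and 21 of the 25 genes were called throughout at a threshold of 0.05. The other 4 were pas-6, pbs-7, rpn-2 and rpn-10, and rpn-2 was lost only where its probe sets were averaged (adjusted p = 0.109). In crh-1 null, against WT, the count of 2 was 0 at a threshold of 0.01, 6 with only the 2 strains in the fit, 8 with array weights and 1 with the replicate block, and 0 to 2 with 1 array left out. For aak-2 o/e against WT the count of 3 was 0 at 0.01, 5 without the filter on dim probe sets, 5 with probe sets averaged per gene and 2 with the block, and 0 to 7 with 1 array left out. For tax-6 null against aak-2 o/e the count of 17 was 11 at 0.01, 15 with the block and 13 to 21 with 1 array left out. For crh-1 null against tax-6 null the count of 19 was 3 at 0.01, 13 with the block and 7 to 19 with 1 array left out. For crh-1 null against aak-2 o/e the count of 1 was 0 at 0.01, 1 with the block and 0 to 2 with 1 array left out. In tax-6 null against WT, 22 members and 2677 of 10353 genes were called lower after quantile normalization. With arrays centred on their medians these were 29 members and 3098 of 10361 genes. The main fit had 25 members and 2729 of 10365 genes. For the other settings the share of all genes called was not counted, so the counts of members stand without it. The cause of these shifts was not tested. With 1 array left out the mean core minus cap difference ran from 3.16e-05 to 0.0712 in crh-1 null, 0.0168 to 0.190 in tax-6 null and -0.109 to -0.0749 in aak-2 o/e.

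Against WT, signs turned for changes that were not called. In crh-1 null, against WT, pbs-2 was 0.0064 and rpn-6.1 0.016 after quantile normalization. With 1 array left out pas-6 ran from -0.17 to 0.0789 and rpn-6.1 from -0.12 to 0.0619. Quantile normalization of aak-2 o/e gave 0.0049 for pbs-1, 0.0596 for rpn-3 and 0.0244 for rpn-12. Array weights gave -0.012 for rpn-1 and -0.011 for rpn-2, averaged probe sets -0.015 for rpn-2 and -0.013 for rpn-10, and median centring 0.0024 for rpn-3. With 1 array left out the ranges were -0.11 to 0.0768 for pbs-1, -0.0561 to 0.30 for rpn-1, -0.0447 to 0.19 for rpn-2, -0.0748 to 0.0390 for rpn-3, -0.0060 to 0.10 for rpn-10 and -0.12 to 0.0535 for rpn-12.

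The labels do not say whether equal replicate numbers mark the same day, and the arrays were not taken as pairs. Of 18 pairs of same-numbered arrays from different strains, 1 had deviations that correlated above 0.1 (r from -0.25 to 0.14). Arrays with different numbers were not compared in this way, so the check cannot decide whether same-numbered arrays share a day.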

Other observations

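The mean deviation of the 31 members over the 12 arrays was followed most closely by pas-1 among the members (r = 0.979) and least by pas-2 (r = 0.412) and pas-5 (r = 0.557). These values include each member in the mean and are descriptions.

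Among 10333 other genes, the 10 whose profiles were most like that mean had Pearson's r of 0.970 to 0.983. They were ugt-22, mfsd-13.2, vps-45, sec-61.B, nspg-8, cyp-35A3, lnp-1, nhr-68, dhs-3 and dhs-14. Their log2 changes in tax-6 null ran from -2.79 for cyp-35A3 to -0.91 for lnp-1. Lower values there follow from the choice of these genes, since the members' mean was lowest in the tax-6 null arrays. Within strains, with each strain's mean removed, r ran from 0.452 for dhs-14 to 0.884 for nspg-8. The 12 arrays share 4 strain means.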
